A study of Mus musculus with 4 samples.

Results

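The genes described here are 7 transcription factors of the skeletal muscle lineage, *Pax3*, *Pax7*, *Myf5*, *Myod1*, *Myog*, *Myf6* and *Msc*, chosen by name among the 32285 genes of the feature table. Their UMIs (unique molecular identifiers, each standing for 1 captured transcript) were read in 4 single-cell RNA-seq libraries of leg muscle from fetal mice (E18.5, late gestation). There were 2 wild-type (WT) and 2 knockout (KO) libraries, the latter lacking *SYISL*, which is a long non-coding RNA within an intron of *Synpo2*. WT and KO fetuses shared heterozygous parents and a litter, and nothing else separated the groups in the labels. The muscles of each fetus were isolated separately, but how many fetuses entered a library, their sex and their strain were not given, so p-values measure only the spread between libraries. No gene of the feature table bears the name *SYISL*, so the knockout could not be checked from its own transcript.

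Skeletal muscle forms from progenitors that carry the paired-box factors *Pax3* and *Pax7*. The basic helix-loop-helix (bHLH) myogenic regulatory factors then follow in an order: *Myf5* and *Myod1* commit cells to the lineage, *Myog* switches on terminal differentiation, and *Myf6* acts in differentiating cells and in mature fibers. These factors bind the short DNA motif called the E-box together with partner proteins such as *Tcf3* and *Tcf12*. *Msc* (musculin, also MyoR) belongs to the same bHLH family but acts as a repressor that opposes *Myod1*. Outside muscle, *Pax3* is known from the neural crest, which gives rise to Schwann cells.

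The genes lie on 4 chromosomes of the mm10 genome. *Pax3* (ENSMUSG00000004872) is at chr1:78101267-78197134 and *Pax7* (ENSMUSG00000028736) at chr4:139737062-139833528, both on the minus strand. *Myf5* (ENSMUSG00000000435, chr10:107482908-107486134) and *Myf6* (ENSMUSG00000035923, chr10:107492853-107494737) stand 6718 bp apart on the same minus strand. *Myod1* (ENSMUSG00000009471) is at chr7:46376474-46379099 and *Myog* (ENSMUSG00000026459) at chr1:134289989-134292548, both on the plus strand. *Msc* (ENSMUSG00000025930, chr1:14753346-14755992, minus strand) overlaps *Gm9947* on the opposite strand. The files held 20773 UMIs for *Msc* and 1959 for *Gm9947*, and whether counting used strand was not given, so reads of this pair may not be fully separate.

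Promoters are shown because *Pax7* and *Myf5* had nearly the same profile over cell types and stages, while *Myog*, also highest in muscle, was low in progenitor-like cells and high in myoblast-like cells, where both others were low. The reference promoter table (RefSeq, GRCm38.p6, the assembly that mm10 names) held 3 of the 7 genes, and each window covers 250 bases before and 50 bases after the start site on the strand of the gene. Capitals mark E-boxes (CANNTG, a palindromic frame read on both strands) and the MEF3 motif (TCAGGTT or its reverse complement, a motif known from promoters of muscle genes), and these motifs did not overlap.
Pax7: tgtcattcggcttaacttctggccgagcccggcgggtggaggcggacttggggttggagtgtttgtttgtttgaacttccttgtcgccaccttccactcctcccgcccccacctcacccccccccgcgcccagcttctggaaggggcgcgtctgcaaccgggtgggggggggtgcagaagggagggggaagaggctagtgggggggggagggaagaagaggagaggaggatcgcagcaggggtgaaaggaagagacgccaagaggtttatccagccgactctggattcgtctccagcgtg
Myf5: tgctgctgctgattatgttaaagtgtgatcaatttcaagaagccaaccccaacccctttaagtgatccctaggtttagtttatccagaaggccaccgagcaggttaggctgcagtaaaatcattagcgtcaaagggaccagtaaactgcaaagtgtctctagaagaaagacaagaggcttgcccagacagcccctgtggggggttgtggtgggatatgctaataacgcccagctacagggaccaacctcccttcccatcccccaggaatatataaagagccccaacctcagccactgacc
Myog: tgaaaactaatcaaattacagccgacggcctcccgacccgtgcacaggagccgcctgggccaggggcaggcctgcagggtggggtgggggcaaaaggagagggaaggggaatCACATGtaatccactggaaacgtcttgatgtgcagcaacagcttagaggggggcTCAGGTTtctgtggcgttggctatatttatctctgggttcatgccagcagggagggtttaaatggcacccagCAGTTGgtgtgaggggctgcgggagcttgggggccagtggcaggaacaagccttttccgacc
The windows are chr4:139832919-139833218 (*Pax7*), chr10:107486085-107486384 (*Myf5*) and chr1:134289754-134290053 (*Myog*). The *Myog* window held 2 E-boxes, CACATG starting at position -138 and CAGTTG at -12 from the start site, and 1 MEF3 match at -84. Neither motif was in the *Pax7* and *Myf5* windows. Of 32851 promoters of this length, 72.3% held at least 1 E-box, 39.6% at least 2, and 4.07% the MEF3 letters, so E-boxes alone were common and the MEF3 match was not. A match of letters is a description of the window and shows no binding.

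The files held 41741 barcodes, and 36969 cells passed the limits of the study on genes, UMIs and mitochondrial UMIs (8515 and 8177 WT, 9816 and 10461 KO). Deposited totals ran from 109653824 to 126257094 UMIs per library and the median per kept cell from 9118 to 11427. Between 15 and 27 cell barcodes were shared by any pair of libraries. *Xist*, the transcript of the inactive X chromosome, was detected in 98.2% of kept cells of KO library 2 and in at most 0.0587% of those of the other libraries. KO library 2 thus stood apart from the rest by this transcript of female cells, and tests without it are among the alternatives.

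Cells were clustered with the 7 genes left out of the variable genes, and clusters were named from markers that excluded them, so their levels across clusters were not built in. Myogenic-like cells carried *Cdh15*, *Chrna1*, *Actc1* and other muscle markers and numbered 6734 (18.2% of kept cells) (1477, 1315, 2038 and 1904 in WT libraries 1 and 2 and KO libraries 1 and 2). Within them, 3705 cells were progenitor-like, 1843 were cycling, 1059 were myoblast-like and 127 were myotube-like. The myotube-like stage held only 29, 19, 29 and 50 cells in WT libraries 1 and 2 and KO libraries 1 and 2, and its *Col1a1* level of 1701 CPM (the UMIs of a gene among 1000000 UMIs of the same cells) stood far above the 95.8 CPM of progenitor-like cells, so a connective tissue transcript was high in it. All values below are given in the order WT 1, WT 2, KO 1, KO 2. Levels are CPM of UMIs summed over the cells of a library. Because transcripts were tagged at the 3′ end, levels are compared across cells for a gene and not between genes.

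**Figure D1:**
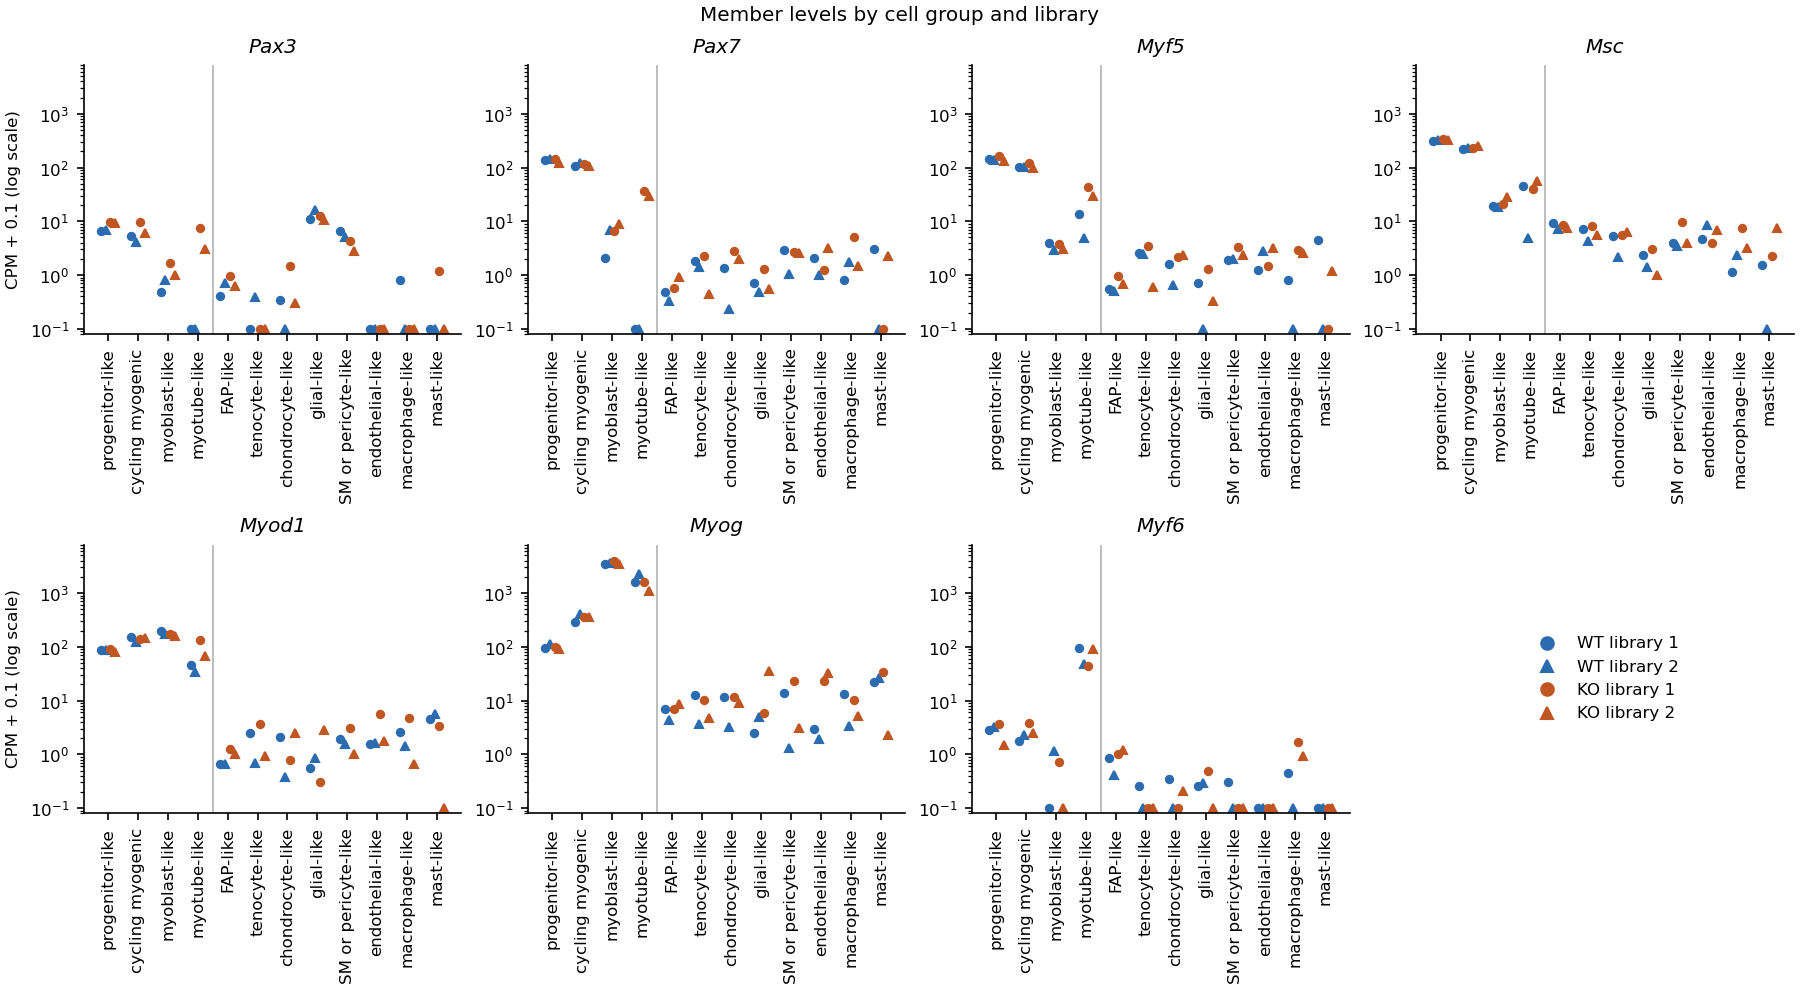
CPM plus 0.1 of each gene (log axis, a panel for each gene) in each myogenic stage, left of the grey line, and other named cell classes, right of it, with a point for each library (blue WT, orange KO). The neutrophil-like class (214 cells) is not drawn. Points at 0.1 had no UMI. *Pax7*, *Myf5* and *Msc* were highest in progenitor-like cells, *Myod1* and *Myog* in myoblast-like cells, *Myf6* in myotube-like cells and *Pax3*, among these groups, in glial-like cells.

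*Pax7*, the defining factor of muscle stem cells and their fetal precursors, was highest in progenitor-like cells, with 139.2, 142.5, 144.2 and 119.4 CPM. Cycling myogenic cells came next with 109.0, 119.2, 118.2 and 105.3 CPM, and these ranges did not overlap. Myoblast-like cells held 1.96, 6.71, 6.55 and 8.74 CPM, between 13.7 and 70.9 times less than progenitor-like cells of the same library. The drop from cycling cells to myoblasts was thus far larger than any spread between libraries. Detection was compared after each cell was drawn to 5000 UMIs, which left out 397 myogenic-like cells with fewer. At this depth 46.8% ± 2.25 (SD, n = 4 libraries) of progenitor-like cells had a *Pax7* UMI, against 0.897% of macrophage-like and 0.172% of FAP-like cells (fibro-adipogenic progenitors), which are taken to lack the gene and give the background of free RNA.

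*Myf5*, the earliest of the regulatory factors in the embryo, followed *Pax7* closely. Its levels were 142.6, 137.0, 161.7 and 134.9 CPM in progenitor-like cells and 102.0, 102.5, 120.5 and 99.7 CPM in cycling cells. In myoblast-like cells it was at 3.92, 2.83, 3.74 and 3.01 CPM, a fall of 36.3 to 48.5 times from progenitor-like cells in every library. Over 13 cell classes and stages the log2 levels of *Pax7* and *Myf5* had a Pearson r of 0.990, a description over groups that share libraries. For *Myf5*, the most similar genes outside the list were *Gm32926* (r = 0.961), *Hmcn2* (0.927) and *Gm43824* (0.923). For *Pax7* they were *Gm32926* (0.934), *Hmcn2* (0.931) and *Fgfr4* (0.926), a fibroblast growth factor receptor of muscle progenitors. These were ranked among 10663 genes by the same measure.

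*Msc* shared this early profile. Its levels were 309.9, 327.5, 345.5 and 326.7 CPM in progenitor-like cells, 218.1, 233.6, 235.3 and 248.5 CPM in cycling cells and 18.8, 18.7, 21.2 and 28.6 CPM in myoblast-like cells. The fall from progenitor-like to myoblast-like cells was 11.4 to 17.5 times. A UMI of *Msc* was found in 67.3% of progenitor-like cells, 57.0% of cycling cells and 9.45% of myoblast-like cells at 5000 UMIs. Its order of stages was that of *Pax7* and *Myf5*. The profile most like that of *Msc* was its antisense neighbour *Gm9947* (r = 0.972), followed by *Hmcn2* (0.955) and *Ccne1* (0.949), which encodes a cyclin of S-phase entry.

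*Myod1*, which can turn other cell types into muscle when expressed in them, spread more evenly over the stages. It was at 88.6, 86.2, 90.7 and 80.8 CPM in progenitor-like cells, 154.7, 125.2, 138.8 and 148.1 CPM in cycling cells and 194.2, 170.3, 173.7 and 155.8 CPM in myoblast-like cells. The ranges of these 3 stages did not overlap, and the rise from progenitor-like to myoblast-like cells was 1.91 to 2.19 times, small beside the changes of the other factors. This depended on how stages were drawn. With expression centred by library before clustering (read after seeing the data), progenitor-like cells held 61.2, 58.2, 61.2 and 56.4 CPM. Myoblast-like cells then held 178.8, 155.5, 161.0 and 144.6 CPM and overlapped with cycling cells (155.9, 123.0, 138.6 and 146.9 CPM). A group with no stage name held 192.5, 201.1, 209.7 and 167.7 CPM, above myoblast-like cells in every library. The genes closest to *Myod1* were *Ank1* (r = 0.981), *Cdh15* (0.980), a cadherin of muscle precursors, and *Vgll2* (0.976), a cofactor of TEAD proteins in muscle.

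*Myog* rose late and steeply. It was at 94.1, 110.6, 99.3 and 91.3 CPM in progenitor-like cells, 292.4, 409.3, 364.6 and 365.1 CPM in cycling cells and 3514, 3556, 3988 and 3491 CPM in myoblast-like cells. Myoblast-like cells thus exceeded progenitor-like cells by 32.2 to 40.2 times. The size of this step depended on how stages were drawn: with expression centred by library before clustering (stages read this way after seeing the data), 731 of the 3705 progenitor-like cells fell in a group with no stage name that held 658.2, 955.8, 907.0 and 788.8 CPM, and the 2984 progenitor-like cells of that clustering held 12.1, 15.1, 8.71 and 17.1 CPM against 3697, 3809, 4183 and 3830 CPM in myoblast-like cells. In the stages as first drawn, 99.9% of myoblast-like cells had a *Myog* UMI at 5000 UMIs per cell, with a mean of 41.0 UMIs per positive cell before drawing. In myotube-like cells the level was lower again, at 1608, 2251, 1627 and 1069 CPM. The genes closest to *Myog* were *Gm28653* (r = 0.987), *Chrna1* (0.980), a subunit of the acetylcholine receptor, and *Mymx* (0.979), which is needed for myoblast fusion.

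*Myf6* was rare and late. Myotube-like cells held 95.9, 48.6, 44.1 and 89.99 CPM, from 21, 10, 18 and 60 UMIs, while progenitor-like cells held 2.77, 3.15, 3.53 and 1.41 CPM. Myoblast-like cells held 0, 1.06, 0.624 and 0 CPM, and the zeros allow up to 1.18 and 0.904 CPM (a limit of 3 counts, counting error only). So *Myf6* did not follow *Myog* through the myoblast-like stage, and 24.3% of the myotube-like cells had a UMI at 5000 UMIs against 1.24% of progenitor-like cells. Its closest genes were *Arhgap36* (r = 0.956), *Atp1b4* (0.945) and *Sln* (0.936), the last encoding sarcolipin, a regulator of the calcium pump.

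*Pax3* departed from the rest, because among the named classes and stages its highest level was outside muscle. Glial-like cells, which carried *Sox10* and *Foxd3*, held 10.96, 16.05, 12.59 and 10.57 CPM. Progenitor-like cells held 6.59, 6.71, 9.69 and 9.26 CPM, below every glial-like value. Cycling cells (5.13, 4.10, 9.43 and 5.97 CPM) and smooth muscle or pericyte-like cells (6.56, 4.98, 4.23 and 2.73 CPM) overlapped with progenitor-like cells or with each other, and myoblast-like cells were at 0.392, 0.706, 1.56 and 0.904 CPM. No *Pax3* UMI was among the 14686608 UMIs of 1329 endothelial-like cells, which allows up to 0.204 CPM. The closest profiles were those of *Arvcf* (r = 0.903), *Vgll3* (0.896) and *Dmd* (0.894), the dystrophin gene.

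**Figure D2:**
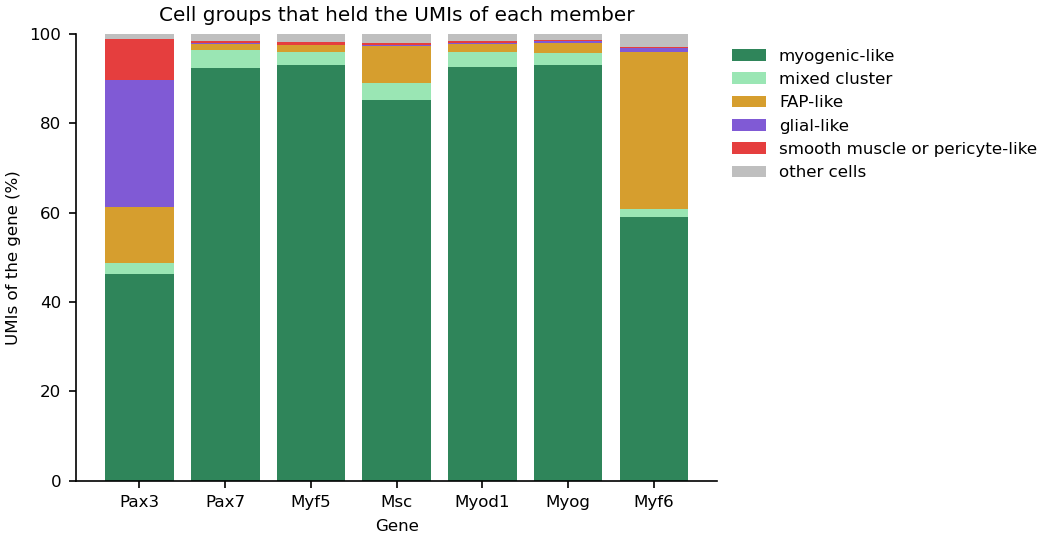
Percent of all UMIs of each gene (stacked bars) that came from myogenic-like, mixed-cluster, FAP-like, glial-like, smooth muscle or pericyte-like and other cells, over all libraries. Myogenic-like cells gave 92.4% to 93.1% of the UMIs of *Pax7*, *Myf5*, *Myod1* and *Myog*, 85.2% of those of *Msc*, 58.9% of those of *Myf6* and 46.3% of those of *Pax3*.

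The plot of UMI origin sets the classes side by side. Of all *Pax3* UMIs, 46.3% lay in myogenic-like cells, 28.3% in glial-like, 12.5% in FAP-like and 9.13% in smooth muscle or pericyte-like cells. Of all *Myf6* UMIs, 58.9% were in myogenic-like cells (24.3% in the 127 myotube-like cells alone) and 35.3% in FAP-like cells, a class of 18625 cells that was the largest of all. For *Pax7*, *Myf5*, *Myod1* and *Myog*, the FAP-like class gave the largest named share outside muscle, at most 2.20%.

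The *Pax3*-positive glial-like cells carried *Sox10* and *Foxd3* as the class did. There were 167 of them (9.13% of 1830), with 114 CPM of *Sox10* against 129 in the other glial-like cells and 412 against 463 of *Foxd3*. Of the muscle genes, the actin *Actc1* was at 11.3 against 20.7 CPM and desmin (*Des*) at 9.89 against 4.53 CPM. Only 9 of the 167 (5.39%) held a UMI of any other of the 7 genes. By *Actc1* muscle RNA was thus lower in them than in their neighbours, and by *Des* higher. In the smooth muscle or pericyte-like class 39 cells had a *Pax3* UMI, and by most class markers they lay toward smooth muscle. *Acta2* was at 15937 CPM against 5292, *Myh11* at 1257 against 442.5 and *Tagln* at 12312 against 2761. *Rgs5* (747 against 2176), *Kcnj8* (83.8 against 229), *Abcc9* (190 against 579) and *Pdgfrb* (131 against 351) were lower. *Mcam* (387 against 331) and *Cspg4* (102 against 99.0) were not. Of the muscle genes, *Actc1* was at 145 against 24.1 CPM, *Des* at 49.8 against 90.3 and *Tnnt1* at 11.3 against 16.4. These are pooled cells, described without a test.

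The *Myf6* UMIs of FAP-like cells came with muscle RNA. In the 143 positive cells (0.768% of the class) *Actc1* was at 561 CPM against 36.5 in the negative cells, *Tnnt1* at 114 against 12.8 and *Des* at 60.8 against 16.0, and 36 (25.2%) held a UMI of another of the 7 genes. Of the FAP markers, *Pdgfra* (336 against 284 CPM), *Smoc2* (581 against 394) and *Osr1* (82.2 against 76.8) were higher in the positive cells. All others were lower, among them *Dcn* (1884 against 2355), *Col1a1* (6434 against 7520), *Pi16* (8.45 against 34.1) and *Ly6a* (19.1 against 157). The *Myf6* level was 1.47 CPM in the largest FAP-like cluster and 0.116 CPM in the *Pi16* and *Ly6a* cluster, so it differed between kinds of FAP-like cells. The part that muscle RNA played in these UMIs was not tested. For *Msc*, 1227 FAP-like cells had a UMI, with levels of 9.14, 7.15, 8.36 and 7.32 CPM, and *Actc1* was at 59.4 CPM in them against 39.6. A cluster of 315 cells that held both muscle and 8 FAP markers was left unnamed. It carried *Pax7* at 62.5, 71.0, 59.8 and 51.7 CPM.

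A finer view came from a score of differentiation per cell, the mean log level of myoblast and myotube markers minus that of progenitor markers, none of them among the 7 genes. Cells of each library were split into 10 equal bins by this score. *Msc* fell from 452.7, 489.3, 479.6 and 517.5 CPM in bin 1 to 18.9, 16.3, 17.5 and 20.2 CPM in bin 10. *Pax7* fell from 195.1, 196.9, 196.0 and 162.4 CPM to 3.44, 3.62, 4.38 and 5.26 CPM, and *Myf5* from 227.1, 205.2, 247.3 and 229.2 CPM to 4.01, 3.01, 6.14 and 5.26 CPM. All 3 thus fell along the score in every library. *Pax3* was at 7.998, 14.3, 18.2 and 13.5 CPM in bin 1 and 2.29, 0, 0.877 and 1.32 CPM in bin 10. In bin 1 it was above the glial-like level in both KO libraries and below it in both WT libraries, so the least differentiated muscle cells reached the glial-like range.

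*Myod1* rose first and then fell. It was at 50.4, 34.6, 40.2 and 28.9 CPM in bin 1 and peaked at 246.2, 224.0, 254.3 and 213.8 CPM, in bin 8 of WT library 1 and bin 9 of the other libraries. In bin 10 it was at 155.9, 124.8, 145.1 and 117.6 CPM. *Myog* was at 84.2, 116.7, 92.3 and 200.8 CPM in bin 7 and then at 547.3, 943.4, 512.1 and 823.3 CPM in bin 8, and reached 3606, 3880, 4082 and 3376 CPM in bin 10. So the *Myod1* peak stood where *Myog* was still climbing. The share of cells with a *Myog* UMI went from 20.2% in bin 7 to 59.1% in bin 8 and 96.3% in bin 9. *Myf6* was highest in bin 10 of 3 libraries (12.6, 8.33 and 26.3 CPM in WT 1, KO 1 and KO 2) and in bin 6 of WT library 2 (9.08 CPM).

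**Figure D3:**
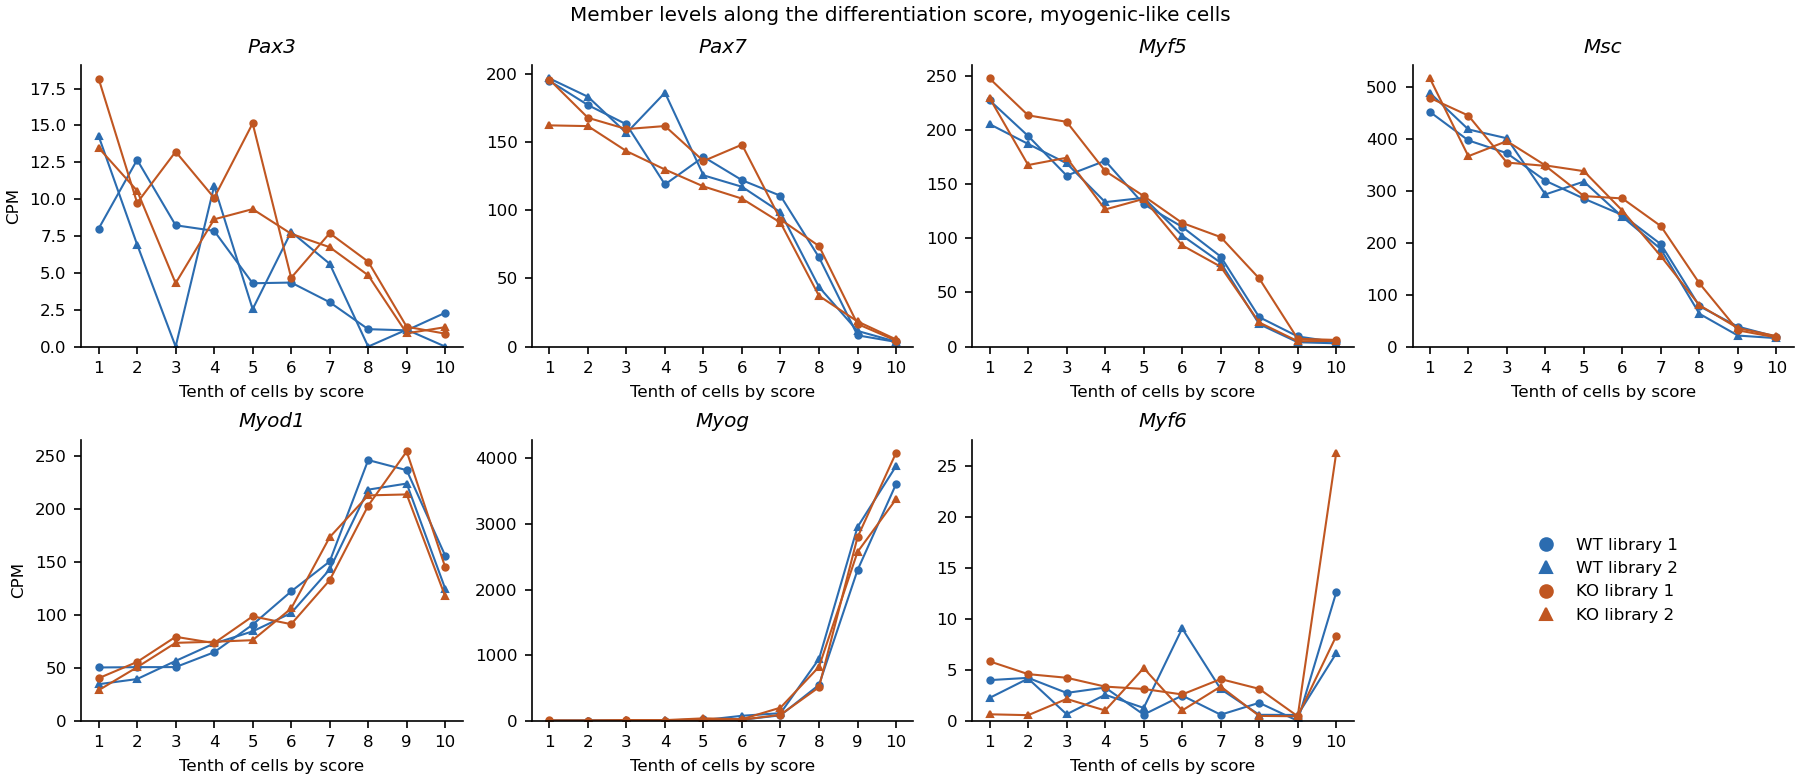
CPM of each gene (linear axes from 0, a different range in each panel) against the 10 bins of the differentiation score, with a line for each library. In every library *Pax7*, *Myf5* and *Msc* were lower in bin 10 than in bin 1, *Myod1* peaked in bin 8 or 9, and *Myog* rose to 3376 CPM or more in bin 10.

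Cycling and non-cycling cells differed at the same score. Within bins that held both stages, *Myod1* was 1.52, 1.18, 1.26 and 1.51 times as high in cycling as in progenitor-like cells. *Msc* was at 0.837, 0.841, 0.758 and 0.879 times and *Myf5* at 0.884, 0.897, 0.833 and 0.867 times the progenitor-like level. The direction was the same in 4 of 4 libraries for these 3 genes and for *Pax7* (0.901, 0.953, 0.900 and 0.991 times). For *Myog* (1.54, 0.986, 1.93 and 2.20 times) it was not. Bin by bin, *Myog* was higher in cycling cells in only 5 of 9, 1 of 8, 3 of 9 and 5 of 9 bins. The stages were defined by other genes of these cells, so this is a description with no test.

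Co-detection asked which factors were found in the same cell. Of 6337 myogenic-like cells drawn to 5000 UMIs, 1078 (17.0%) had UMIs of both *Pax7* and *Myf5* and 1129 (17.8%) of both *Myod1* and *Myog*. *Pax7* and *Myog* met in 195 (3.08%): 8.19% of *Pax7*-positive cells had a *Myog* UMI, against 42.8% of the cells without *Pax7*. At this depth 26.2% of cells had none of the 4 regulatory factors, 47.6% had 1, 25.1% had 2, 1.14% had 3 and 0.0158% had all 4, while 95.4% had a UMI of at least 1 of the 7 genes. Counting only *Pax7*, *Myf5*, *Myod1*, *Myog* and *Myf6*, the leading combinations were *Myod1* with *Myog* (15.3%), none (13.7%), *Pax7* with *Myf5* (13.0%), *Pax7* alone (12.5%), *Myf5* alone (11.01%) and *Myog* alone (9.86%).

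The shares were set against the product of the single shares, which is what independent detection would give. *Pax7* and *Myf5* were found together at 1.38, 1.42, 1.33 and 1.37 times the product, and *Myod1* and *Myog* at 1.69, 1.69, 1.64 and 1.495 times. *Myf5* with *Myod1* stood at 0.634, 0.602, 0.633 and 0.647 times, so the early pair of regulatory factors met less often than the product. *Pax7* with *Myog* stood at 0.317, 0.239, 0.251 and 0.298 times and *Myf5* with *Myog* at 0.144, 0.123, 0.213 and 0.223 times, the lowest of those named here. *Msc* met *Pax7* at 1.26, 1.32, 1.23 and 1.32 times and *Myf5* at 1.38, 1.37, 1.34 and 1.40 times, but *Myog* at 0.285, 0.323, 0.287 and 0.315 times.

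Pooling of stages can itself give such ratios, so they were repeated within progenitor-like cells. There *Pax7* with *Myf5* came to 1.14, 1.15, 1.10 and 1.12 times the product, nearer to 1 than over all stages. *Myod1* with *Myog* came to 2.05, 2.17, 2.24 and 1.96 times, further from 1. *Pax7* with *Myog* stayed low at 0.533, 0.517, 0.530 and 0.554 times and *Myf5* with *Myod1* at 0.754, 0.714, 0.650 and 0.692 times. For each pair set against the product here, all 4 libraries lay on the same side of 1. Over all stages together, *Pax3* was detected in 162 myogenic-like cells, and 89 of them (54.9%) also had *Pax7*, against 37.1% of *Pax3*-negative cells. This value pools stages that differ in both genes. *Pax3* was in 3.19% of progenitor-like and 0.446% of myoblast-like cells, and *Pax7* in 46.8% and 2.51%. The part of pooling in it was not tested. The progenitor-like stage itself pooled cells of low and high *Myog*. In the progenitor-like cells of the library-centred clustering, *Pax7* with *Myf5* came to 1.06, 1.05, 1.03 and 1.05 times, *Myod1* with *Myog* to 1.92, 1.88, 1.75 and 1.97 times, *Pax7* with *Myog* to 0.615, 0.780, 0.724 and 0.899 times and *Myf5* with *Myod1* to 0.926, 0.827, 0.771 and 0.7696 times. These kept their side of 1 in each library but lay nearer to it on the mean of the 4, and those with *Myog* rest on 7 to 12 cells with both genes in a library.

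**Figure D4:**
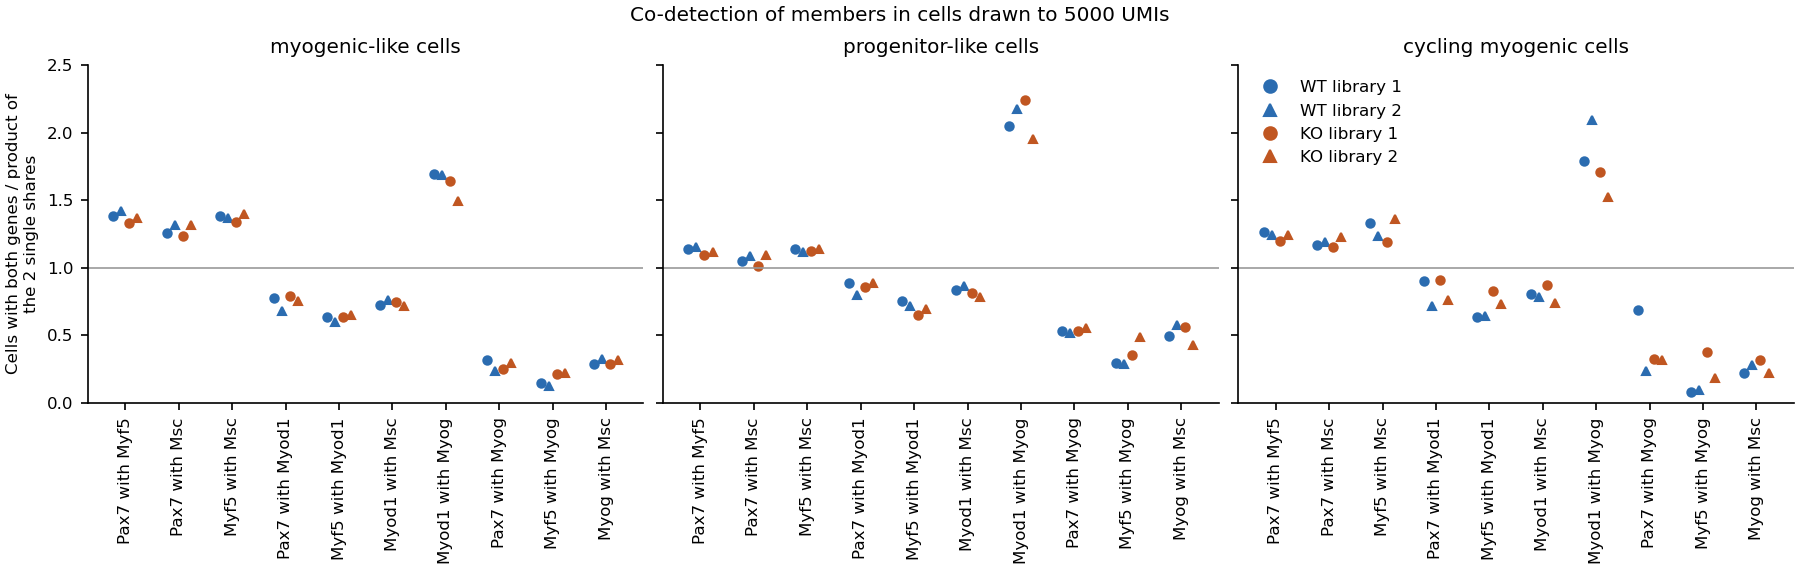
Share of cells with UMIs of both genes divided by the product of the single shares (linear axis, the grey line at 1 is independent detection), for 10 pairs of the genes in all myogenic-like, progenitor-like and cycling cells (left to right), with a point for each library. In myogenic-like cells *Pax7* with *Myf5* lay at 1.33 to 1.42 and *Pax7* with *Myog* at 0.239 to 0.317 in all 4 libraries.

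The comparison of KO with WT asked whether loss of *SYISL* changed these genes in the cells that use them. In myogenic-like cells *Pax7* was at 104.7, 108.2, 109.7 and 92.6 CPM, *Myf5* at 104.4, 99.3, 118.2 and 96.3 CPM and *Myod1* at 127.8, 114.0, 122.6 and 117.5 CPM. *Myog* was at 734.5, 861.9, 875.8 and 796.6 CPM, and *Msc* at 227.7, 235.5, 245.7 and 238.8 CPM. WT and KO libraries overlapped for *Pax7*, *Myf5*, *Myod1* and *Myog*. None of the 7 genes passed an adjusted p of 0.05 in edgeR's quasi-likelihood test (Benjamini-Hochberg over 14712 genes), and 0% of all genes tested did. At an unadjusted p under 0.05 there were 549 genes (3.73%) and 1 of the 7, and DESeq2 called 2 genes, none of the 7. Log2 KO over WT was -0.03 ± 0.09 (SE) for *Pax7*, 0.11 ± 0.10 for *Myf5*, 0.03 ± 0.08 for *Myod1*, 0.11 ± 0.08 for *Myog* and 0.11 ± 0.06 for *Msc*, with adjusted p from 0.965 to 0.976.

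*Pax3* had the largest difference of the 7, at 4.99, 4.65, 8.19 and 6.44 CPM. Both KO libraries stood above both WT libraries, with a log2 KO over WT of 0.64 ± 0.18, an unadjusted p of 0.00631 and an adjusted p of 0.965 in edgeR's test, so it failed the correction. *Myf6* was at 3.22, 3.06, 3.96 and 4.51 CPM, with a log2 KO over WT of 0.47 ± 0.21, unadjusted p of 0.0501 and adjusted p of 0.965. On edgeR's scaled values 3 of 7 genes (*Pax3*, *Myf6* and *Msc*) had both KO libraries above both WT libraries, where 16.8% of all genes tested did. Without KO library 2, log2 KO over WT was 0.79 for *Pax3*, and without KO library 1 it was 0.47. The glial-like level of *Pax3*, read above, overlapped between WT and KO.

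**Figure D5:**
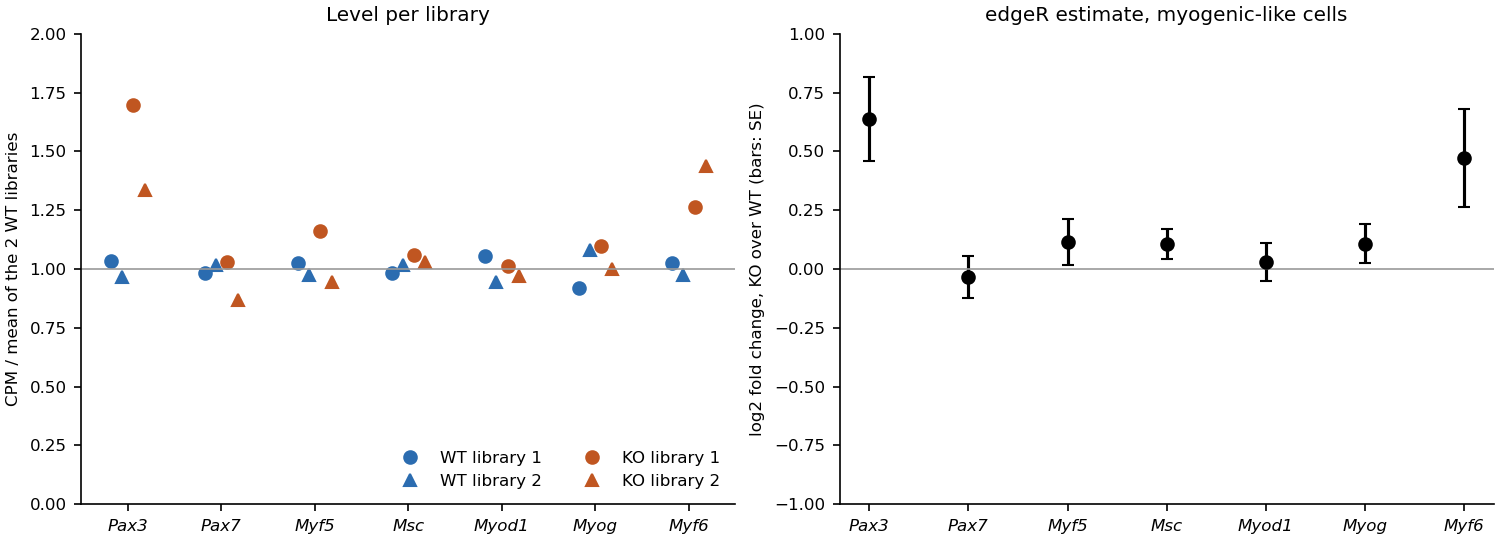
Left, CPM of each gene in myogenic-like cells of each library divided by the mean of the 2 WT libraries. Right, log2 KO over WT from edgeR with its SE (bars). *Pax3*, *Myf6* and *Msc* had both KO libraries above both WT libraries, and for the other genes the groups overlapped.

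By stage, 0 of 23 tests of these genes passed an adjusted p of 0.05 in edgeR, 4 had an unadjusted p under 0.05 and DESeq2 called 0. Of all genes 0% were called in each of the 4 stages, and 3.33%, 3.89%, 4.69% and 11.4% had an unadjusted p under 0.05 in progenitor-like, cycling, myoblast-like and myotube-like cells. The 4 were *Pax3* in progenitor-like and in cycling cells and *Myod1* and *Myog* in myotube-like cells. On edgeR's scaled values both KO libraries were above both WT libraries for 2 of 7 genes in progenitor-like cells (*Pax3* and *Msc*, against 16.2% of all genes tested), 4 of 7 in cycling cells (*Pax3*, *Myf5*, *Myf6* and *Msc*, against 16.3%) and 1 of 5 tested in myoblast-like cells (*Msc*, against 16.9%). *Pax3* and *Msc* thus had this order in both early stages. For *Pax3* the log2 KO over WT was 0.56 ± 0.19 in progenitor-like cells (adjusted p = 0.982) and 0.76 ± 0.30 in cycling cells (adjusted p = 0.997, both edgeR). Myotube-like cells of the 2 genotypes differed in depth, with a median of 5022 and 5434 UMIs per cell in WT and 13426 and 12796 in KO libraries, and the part of this in the differences of the stage was not tested. Among them *Myod1* was at 45.7, 34.0, 134.7 and 67.5 CPM, above in both KO libraries (1 of 4 tested, against 23.1% of all genes), with a log2 KO over WT of 1.20 ± 0.49 and adjusted p of 0.404. *Myog* went the other way there, -0.59 ± 0.25, adjusted p of 0.435, and *Pax7* had 0, 0, 15 and 20 UMIs. Without WT library 1 the adjusted p was 0.0348 for *Msc* and 0.0363 for *Myog* in this stage (edgeR), so 1 library decided both. In that fit 4.54% of all genes were called, and the WT side was 1 library of 19 cells, assumed to vary like the KO libraries. The 19 to 50 cells per library hold little depth: the zeros of *Pax7* allow up to 13.7 and 14.6 CPM in the WT libraries.

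For shares of positive cells an exact permutation test (two-sided, 6 arrangements) was run, and its smallest p is 0.333. At 5000 UMIs *Pax3* was found in 1.51%, 2.36%, 3.59% and 2.41% of myogenic-like cells, a KO minus WT difference of 1.07 percentage points (exact p = 0.333, adjusted over 7 genes 1). *Pax7* was found in 38.4%, 37.9%, 39.7% and 34.4% and *Myog* in 28.3%, 31.3%, 28.2% and 31.7%, with overlap of the groups. Of the 5 pairs tested, *Myod1* with *Myog* (18.0%, 18.7%, 17.7% and 17.2%) did not overlap between groups (exact p = 0.333, adjusted over 5 pairs 0.833). That separation was gone when the mean over all draws of 5000 UMIs was taken, where 0 of 5 pairs did not overlap, so it rested on the draw.

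Outside muscle, 1 of 29 tests over 8 classes was called, *Myog* in endothelial-like cells, and DESeq2 called 1. In edgeR 6 had an unadjusted p under 0.05, all higher in KO. FAP-like cells held 2 of them, where 271 genes were higher and 289 lower of 18366 at this p. Chondrocyte-like (185 and 172 of 13343), glial-like (239 and 246 of 12855), smooth muscle or pericyte-like (379 and 285 of 12591) and endothelial-like cells (226 and 195 of 11756) held 1 each. Endothelial-like cells held 10, 6, 100 and 114 *Myog* UMIs, or 2.88, 1.80, 23.1 and 32.0 CPM, with a log2 KO over WT of 3.53 ± 0.32 and an adjusted p of 0.0012 in edgeR's test, where 0.0425% of all genes tested were called. The UMIs sat in few cells: 7 KO cells (3 and 4 per library) with 10 or more *Myog* UMIs held 83.0% and 83.3% of the KO totals. Without these cells the levels were 2.88, 1.80, 3.96 and 5.47 CPM, an alternative added after seeing the data. *Actc1* was at 323 CPM in the *Myog*-positive endothelial-like cells and 12.7 CPM in the others, and after removal of cells called doublets by Scrublet the log2 KO over WT was 1.90 with an adjusted p of 0.999. The high values thus lay in few cells that also held muscle RNA. Of 10 muscle markers, 7 had both KO libraries above both WT libraries in this class, and the summed level of the 10 was 41.8, 31.8, 78.4 and 98.3 CPM. On edgeR's scaled values 1754 of all 11756 genes tested in the class had this order. In glial-like cells *Myog* was at 2.44, 4.91, 5.80 and 35.98 CPM, with KO library 2 alone high. With a library left out, *Myog* was also called in glial-like cells (without KO library 1, where 0.216% of all genes were called against 0% with all libraries) and in smooth muscle or pericyte-like cells (without WT library 1 or without KO library 2, where 1.27% and 0.842% were called against 0.0794%). In each of these fits 1 group is a lone library, assumed to vary like the other group, while the endothelial-like log2 KO over WT ranged from 3.23 to 3.92.

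In FAP-like cells 5 of 7 genes (*Pax7*, *Myf5*, *Myod1*, *Myog* and *Myf6*) had both KO libraries above both WT libraries, against 15.7% of all genes tested, and none was called, with 0% of all genes called. Levels were low, for example 0.569, 0.552, 1.16 and 0.936 CPM for *Myod1* and 6.95, 4.22, 7.01 and 8.46 CPM for *Myog*. Of 10 muscle markers, 5 (*Actc1*, *Tnnt1*, *Cdh15*, *Chrna1* and *Mymk*) also had both KO libraries above both WT libraries in these cells, while the summed level of the 10 overlapped, at 117.5, 94.2, 113.3 and 125.8 CPM. The part of muscle RNA in the result was not tested. In smooth muscle or pericyte-like cells *Pax3* was lower in both KO libraries (1 of 5 tested, against 16.7% of all genes), *Msc* and *Myf5* were higher in both (2 of 5, against 17.1%), and 0.0794% of all genes were called. In chondrocyte-like cells *Msc*, *Myf5* and *Pax7* were higher in both KO libraries (3 of 5, against 14.7%). In mast-like cells 0.0839% of all genes were called, none of them among the 7. In tenocyte-like, chondrocyte-like, glial-like and macrophage-like cells 0% were.

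Other genes of the network were read in groups. The bHLH partners and Mef2 factors (6 of 6 tested) had a median log2 KO over WT of -0.01, with 3 higher and 3 lower. The inhibitors of bHLH factors (9 of 12 tested) had a median of 0.13, with 8 higher and 1 lower. Targets such as *Chrna1*, *Mymk* and *Ckm* (14 of 14 tested) had a median of 0.05, with 10 higher and 4 lower. None of those tested in these groups passed an adjusted p of 0.05 in edgeR's test, DESeq2 called 0, and the median over all genes was 0.0016.

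Of these groups, 0 of 6 partners, 3 of 9 inhibitors and 1 of 14 targets had an unadjusted p below 0.05 in edgeR's test. Of all genes tested 3.73% did. The inhibitors were *Hes1*, a Notch target that represses bHLH genes, at 169.9, 158.6, 203.9 and 184.5 CPM (0.28 ± 0.08), *Id1*, which sequesters the partner proteins, at 353.3, 401.2, 414.7 and 423.6 CPM (0.19), and *Twist1* at 2.09, 2.67, 3.70 and 3.6002 CPM (0.66). The summed level of the FAP markers in these myogenic-like cells was 755, 709, 876 and 861 CPM, also above in both KO libraries. Its part in the *Twist1* difference was not tested. The target was the cell cycle inhibitor *Cdkn1a*, at 166.3, 156.5, 200.1 and 165.1 CPM (0.22). Among the myogenic stages, values of *Twist1* and of the homeobox factor *Meox2* were highest in myotube-like cells. They were at 44.0 and 26.7 CPM there against 2.14 and 2.08 CPM in progenitor-like cells. This is the stage of 127 cells in which the connective tissue transcript *Col1a1* was high. The part of connective tissue RNA in these values was not tested.

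Other genes of the list differed between stages too, given here as levels with no test. Of those below, *Hes1*, *Heyl*, *Mef2c*, *Mymk*, *Mymx* and *Ckm* were among the markers that named the stages. Their order over stages was thus partly built in. *Id3*, *Tcf12* and *Tcf21* were not among these markers. *Id3* was at 1029 CPM in progenitor-like cells and 156.4 CPM in myoblast-like cells, *Hes1* at 226.2 and 49.98, and *Heyl* at 37.1 and 7.90. The partner *Tcf12* varied little, at 403.8 and 528.2 CPM. *Mef2c* was at 16.0 CPM in progenitor-like, 133.8 CPM in myoblast-like and 894.9 CPM in myotube-like cells, and the fusion genes *Mymk* (3.42, 204.1 and 168.7 CPM) and *Mymx* (7.52, 670.5 and 464.8 CPM) were highest in the myoblast-like stage, where *Myog* was highest. *Ckm*, a muscle creatine kinase of formed fibers, was at 10.8, 16.9 and 1388 CPM, highest in the myotube-like stage, as *Myf6* was. *Tcf21* had no UMI in any myogenic-like cell.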

How the data were processed

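Leg muscle cells were dissociated with trypsin and DNase I, filtered, freed of red blood cells and profiled with Chromium Single Cell 3ʹ v3 chemistry in 4 libraries. Per the submitters' processing notes, reads were aligned to mm10 with Cell Ranger 7.2.0, and what the authors deposited is a raw count of UMIs for each gene in each cell. That version counts intronic reads by default, and whether this was kept was not given.

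Kept cells had 1000 to 6000 genes, 1000 to 25000 UMIs and a mitochondrial share under 8%. After scaling to 10000 UMIs, cells were clustered (scanpy 1.11.5; 3000 variable genes, 30 principal components, 20 neighbours, Leiden resolution 0.3). The 7 genes were left out of clustering and naming. A class needed at least 3 of its markers at 2-fold or more, and names are rebuilt, so they may differ from those of the study, which used Harmony. Doublets were limited by the upper bounds only, and Scrublet removal (161, 135, 243 and 249 cells) was an alternative.

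The library was the replicate. UMIs were summed per library and class or stage and tested with edgeR 4.0.16 (quasi-likelihood, TMM, filterByExpr, Benjamini-Hochberg over all genes tested; threshold 0.05), with DESeq2 1.42.0, other normalization, no filter, other clusterings, a looser cell filter and left-out libraries as alternatives. On counts simulated for the myogenic-like comparison of 14503 genes, 97% of 100 genes changed 2-fold and 68% of 100 changed 1.5-fold were recovered. Detection used 1 seeded draw of 5000 UMIs per cell. The genes named beside each factor were the 3 with the highest Pearson correlation of log2(CPM + 1) over cell classes and stages, among genes of at least 20 CPM in 1 of them. The factors, lists and tests were chosen with earlier results of these data known, and the naming thresholds were set after the clusters were seen. Floors and shares cover counting error only. Some marker genes and 1 group of network genes are not reported here.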

Additional observations from a re-analysis of the deposited data

Results flagged for a closer look

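For *Pax3*, WT and KO libraries stood in opposite order in 2 cell classes that express it, and neither difference was called. In myogenic-like cells both KO libraries (8.19 and 6.44 CPM) stood above both WT libraries (4.99 and 4.65 CPM), with a log2 KO over WT of 0.64, where 16.8% of all genes tested had this order. In smooth muscle or pericyte-like cells both KO libraries (4.23 and 2.73 CPM) stood below both WT libraries (6.56 and 4.98 CPM), with a log2 KO over WT of -0.70, where 16.7% of all genes tested had this order. The difference between these log2 values was 1.34, and it was not tested. Neither value passed the adjusted threshold in edgeR's test, and in the second class 86 UMIs in 39 cells carry the result.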

How the results depend on the processing

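In myogenic-like cells no factor and no gene of the network groups was called under any alternative run. By stage, 0 calls became 1 with no filter on low counts (*Pax7* in myotube-like cells, where 1.48% of all genes were called) and ranged from 0 to 2 when each library was left out, the 2 being *Msc* and *Myog* in myotube-like cells without WT replicate 1, where 4.54% of all genes were called, against 0% with all libraries and the filter. In other classes the 1 call (*Myog* in endothelial-like cells) became 0 after Scrublet doublets were removed and 2 with no filter (*Myog* in glial-like cells also, where 0.303% of all genes were called), and ranged from 1 to 2 with a library left out, where *Myog* was also called in smooth muscle or pericyte-like cells without WT replicate 1 or without KO replicate 2, and in glial-like cells without KO replicate 1. Libraries with the same replicate number deviated together only weakly (r = 0.148 over 14712 genes, 2 pairs), so the numbers are not shown to pair them; with the replicate block 2 calls were made in other classes (*Myog* in glial-like and endothelial-like cells, with 0.731% and 0.179% of all genes), 0 in myogenic-like cells and 0 by stage. Directions turned for *Pax7* (log2 KO over WT -0.14 to 0.069 with a library left out), *Myf5* (-0.023 to 0.24) and *Myod1* (-0.058 to 0.13), none called, and stayed for *Pax3* (0.47 to 0.79), *Myf6* (0.36 to 0.58), *Msc* (0.09 to 0.12) and *Myog* (0.01 to 0.22). The endothelial-like *Myog* difference fell to 1.90 without Scrublet doublets. The cause of these changes was not tested. Of 7 detection shares, 1 to 3 did not overlap between groups across the depths, draws and clusterings tried, *Pax3* in each, and of 5 pairs 0 to 3. Each such separation has an exact p of 0.333 in the permutation test. *Myf6* was lower in both KO libraries at 2000 UMIs and higher in both over all draws of 5000. *Pax7*, *Myf5* and 3 pairs separated only without drawing, all lower in KO. Median UMIs per myogenic-like cell were 10286, 11401, 8984 and 9759, and the part of depth in this was not tested. When the 7 genes were allowed into clustering, 846 myogenic-like cells formed a group with no stage name, and progenitor-like *Myog* was 13.1 CPM in place of 98.8, and it was 13.3 CPM with library-centred clustering. Depth limits *Pax3* and *Myf6*, with 436 and 264 UMIs in 6734 cells, and every result of the 127 myotube-like cells.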
